A study of Mus musculus with 12 samples.

Results

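The genes described here are 35 genes of glucose breakdown, the pentose phosphate pathway and the response to low oxygen, taken by name from the 24346 gene symbols of a series on marginal zone B cells. These cells are B lymphocytes of the spleen that sit at the border between the white and the red pulp and respond quickly to blood-borne antigens. RNA was sequenced from cells of wild-type mice and of Trpm5-/- mice, which lack TRPM5, a cation channel opened by intracellular calcium. Cells of each genotype spent 4 h in culture under 3 conditions: no stimulus, 10 µg/mL of the bacterial cell wall component lipopolysaccharide (LPS), which Toll-like receptor 4 senses, or 10 µg/mL of anti-IgM antibody, which cross-links the B cell receptor. The resulting 6 groups held 2 libraries each, 12 in all, and no agent or allele besides these is named in the labels. The sources used here do not give the age or strain background of the mice, the deleted part of Trpm5, or whether both libraries of a group are from different mice or cultures. The p-values below thus reflect only how far the libraries at hand scatter, and that scatter may be technical.

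Glycolysis takes glucose through a chain of enzymes to pyruvate, which is either burned in mitochondria or reduced to lactate and exported. The pentose phosphate pathway branches off after the first step and makes NADPH and the ribose of nucleotides. Hypoxia-inducible factor 1 (HIF-1), whose subunit Hif1a is marked for degradation by oxygen-dependent prolyl hydroxylases, and MYC are transcription factors known to drive many of these genes, and activated lymphocytes are known for raising glucose uptake and lactate release as they prepare to grow.

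The 250 bases upstream of the RefSeq start of 6 members show what surrounds the genes with the strongest responses. They belong to the 5 members with the largest rises under LPS in wild-type cells and the member with the largest fall, among those averaging at least 5 FPKM, and are written 5′ to 3′ on the gene's strand. Capitals mark ACGTG, the core of the hypoxia response element, and its complement CACGT; the E-box CACGTG, which MYC with its partner MAX can bind, reads the same on both strands and holds 2 overlapping matches to ACGTG. The sequences are from RefSeq on GRCm38.p6, the build also known as mm10.
Slc16a1: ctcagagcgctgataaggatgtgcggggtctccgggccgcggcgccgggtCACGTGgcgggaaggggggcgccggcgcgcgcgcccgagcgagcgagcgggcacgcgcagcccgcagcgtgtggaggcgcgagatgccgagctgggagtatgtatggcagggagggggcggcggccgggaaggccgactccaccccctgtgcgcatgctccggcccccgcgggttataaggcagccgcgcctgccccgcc
Hk2: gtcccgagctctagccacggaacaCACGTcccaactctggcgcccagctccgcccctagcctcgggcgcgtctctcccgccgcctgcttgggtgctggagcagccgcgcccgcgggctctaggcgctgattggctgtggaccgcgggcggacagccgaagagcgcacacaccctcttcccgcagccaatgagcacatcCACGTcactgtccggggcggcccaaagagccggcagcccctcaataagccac
Pgam1: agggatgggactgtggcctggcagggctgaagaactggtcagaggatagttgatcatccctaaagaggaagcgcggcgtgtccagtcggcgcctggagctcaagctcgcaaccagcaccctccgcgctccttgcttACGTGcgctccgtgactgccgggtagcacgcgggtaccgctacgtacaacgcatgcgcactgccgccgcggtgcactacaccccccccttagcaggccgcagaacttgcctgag
Mif: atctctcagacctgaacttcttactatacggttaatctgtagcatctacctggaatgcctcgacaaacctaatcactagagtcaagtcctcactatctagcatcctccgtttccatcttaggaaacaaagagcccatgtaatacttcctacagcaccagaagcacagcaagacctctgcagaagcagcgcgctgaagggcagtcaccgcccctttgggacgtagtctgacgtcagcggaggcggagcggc
Ldha: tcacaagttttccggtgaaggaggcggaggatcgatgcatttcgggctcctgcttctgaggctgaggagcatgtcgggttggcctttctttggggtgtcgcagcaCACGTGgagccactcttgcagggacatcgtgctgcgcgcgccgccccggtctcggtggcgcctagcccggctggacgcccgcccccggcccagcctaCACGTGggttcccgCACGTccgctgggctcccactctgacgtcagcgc
Bnip3: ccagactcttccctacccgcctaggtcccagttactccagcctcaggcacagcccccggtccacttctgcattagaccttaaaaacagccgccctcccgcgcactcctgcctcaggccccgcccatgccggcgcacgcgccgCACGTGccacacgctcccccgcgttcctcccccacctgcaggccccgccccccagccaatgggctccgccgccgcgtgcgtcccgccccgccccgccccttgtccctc

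These windows lie at chr3:104638414-104638663 (plus strand), chr6:82774455-82774704 (minus strand), chr19:41911621-41911870 (plus strand), chr10:75860278-75860527 (minus strand), chr7:46845554-46845803 (plus strand) and chr7:138909507-138909756 (minus strand). The Ldha window held 2 copies of CACGTG and 5 matches to ACGTG on both strands together, and a second RefSeq window of Ldha held 0. Slc16a1 and Bnip3 each held 1 CACGTG, Hk2 held 2 matches to ACGTG, Pgam1 held 1, and Mif held 0. Of the 34 members with a RefSeq window, 15 held ACGTG in the window nearest the annotated start and 5 held CACGTG. Counting all 49 windows of these 34 members, 42.86% held ACGTG and 12.24% held CACGTG, against 16.57% and 6.021% of all 32851 windows. Windows of the same gene can overlap, as some of Aldoa do, and then count the same match again. The background holds windows of all genes, expressed here or not, so the shares are a description and their difference was not tested. A match is a string of letters and was not tested for binding.

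Expression is given in FPKM, which counts fragments relative to transcript length and to the sequenced total, so levels of different genes can be set side by side. The libraries held 12737 to 13483 symbols above 0, their relative depth ran from 0.645 to 1.06 of that of the first unstimulated wild-type library, and the sources used here do not state total read numbers. Trpm5 itself (chr7:143069153-143094642, minus strand, mm10) was close to 0 everywhere, at 0.0196 to 0.434 FPKM in the 6 wild-type libraries and 0 to 0.0303 FPKM in the 6 Trpm5-/- libraries, ranges that overlap. All 6 pan-B markers and all 10 marginal zone B cell markers of lists written for this work were detected. So were the 4 of 5 follicular B cell markers found, which summed to 1248 and 1302 FPKM in unstimulated wild-type cells. Marginal zone markers summed to 1138 and 1162 there. Of the stromal and endothelial markers, Pecam1 reached 48.2 FPKM and the others stayed at or under 0.147. The summed FPKM of NK cell, neutrophil and platelet markers stayed at or under 2.78, and the T cell genes Cd3d, Cd3e and Cd3g stayed at or under 0.702, while Lck, a T cell marker that the list also holds, reached 66.2. Red blood cell markers were present in every library, with sums from 249 to 710 FPKM over the 7 of 8 markers found, and 5 of 9 macrophage markers averaged at least 1 FPKM, with sums of 20.1 to 50.5 and Csf1r at no more than 0.824. Because these are bulk RNA samples, fewer cells of a type and less RNA per cell cannot be told apart.

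Of the 35 members, 32 reached 1 FPKM in at least 2 libraries and were tested. Ldhb, the lactate dehydrogenase subunit of oxidative tissues, stood between 0 and 0.304 FPKM, the lactate exporter gene Slc16a3 between 0.0560 and 0.961, and the prolyl hydroxylase gene Egln3 between 0 and 1.25, so these 3 were not tested. Pfkm, the muscle phosphofructokinase, passed the filter through 2 libraries and lay between 0.189 and 1.30 FPKM. At the other end, Ldha, Mif and Aldoa were the 3 most abundant members, with Ldha reaching 1969 FPKM.

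Both stimuli were followed by higher RNA of most of the glycolytic chain, and by lower RNA of a few isozymes and switches. With LPS, 19 of the 32 tested members were higher and 8 lower in wild-type cells at an adjusted p under 0.05 (limma, Benjamini-Hochberg over 10797 genes). LPS moved much of the transcriptome: 69.4% of all tested genes were called, 35% higher and 34.4% lower. With anti-IgM, 18 members were higher and 3 lower, against 48.6% of all genes called, 27.7% higher and 20.9% lower. The median log2 difference of the members was 0.36 with LPS and 0.37 with anti-IgM, beside -0.02 and 0.02 over all tested genes. In Trpm5-/- cells 18 members were higher and 6 lower with LPS, where 68.7% of all genes were called (34.8% higher and 33.8% lower), and 16 were higher and 4 lower with anti-IgM, where 49.9% were called (26.9% higher and 23.0% lower). In every call between a pair of groups the libraries of the groups did not overlap. Calls are picked for differences that are large beside the scatter of the libraries, so this is no separate support for them. Summed red blood cell markers were lower in wild-type cells with LPS (454 to 538 FPKM) and with anti-IgM (379 to 521) than without stimulus (684 to 710). The summed dendritic cell markers went from 9.21 and 9.63 FPKM without stimulus to 71.6 and 76.7 with LPS, most of it Zbtb46, while Itgax stayed at or under 0.802 and Siglech at or under 0.138 in all libraries. Summed follicular B cell markers went from 1248 and 1302 FPKM to 3102 and 3229 with LPS and 964 and 969 with anti-IgM in wild-type cells. Over the same groups the pan-B markers went from 5374 to 5618 FPKM down to 3375 to 3434 and 1895 to 1907, and the marginal zone markers from 1138 to 1162 down to 570 to 592 and 827 to 835. The part of these shifts in the responses was not tested. Both stimuli of a genotype share that genotype's unstimulated libraries, so their 2 sets of values are not independent.

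**Figure D1:**
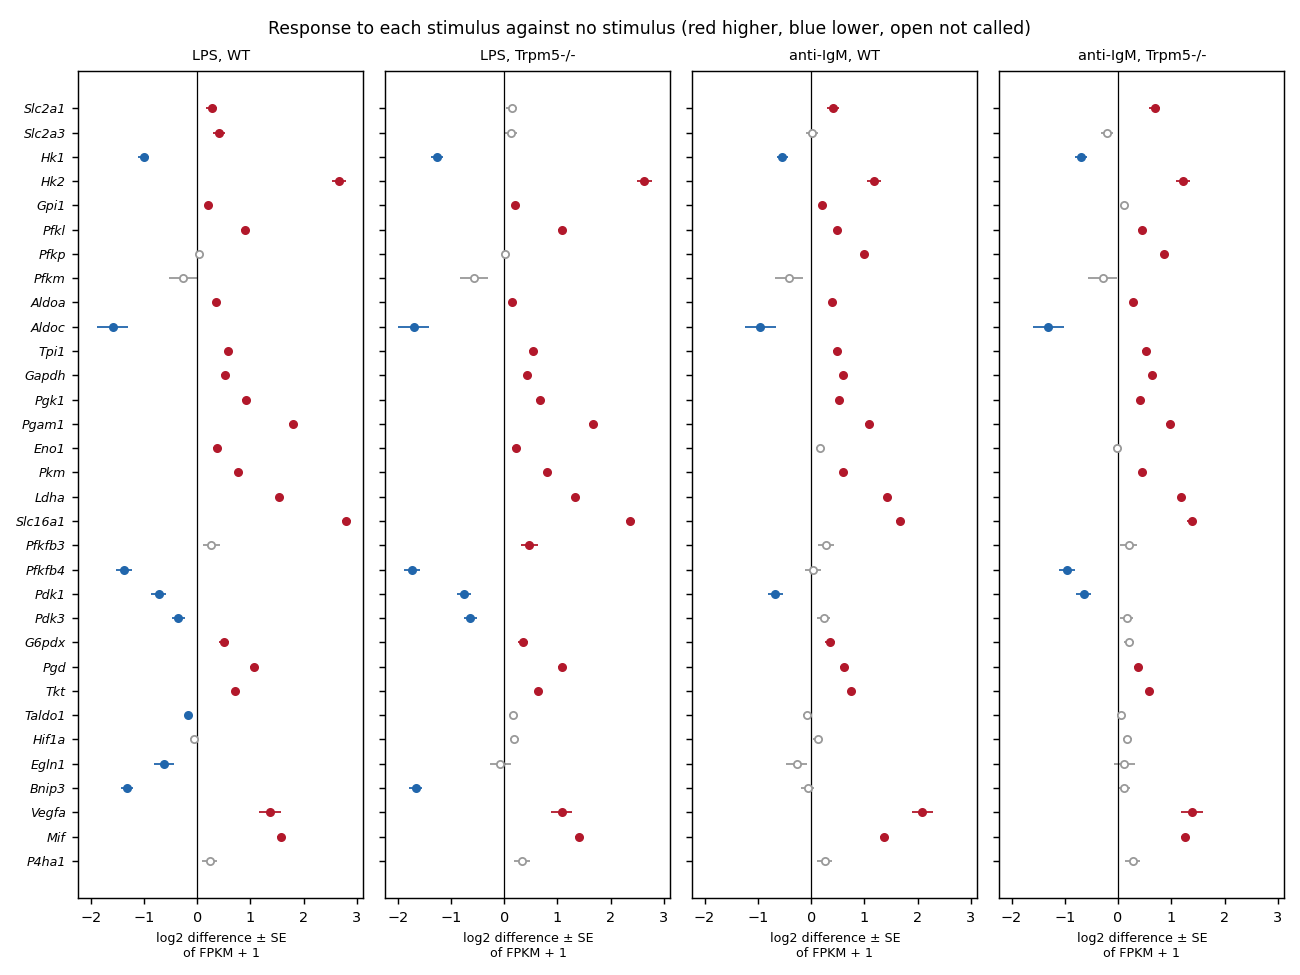
Log2 difference of FPKM + 1 (horizontal axis, bars are standard errors of the model) against no stimulus for the 32 tested members, with 1 panel for each stimulus and genotype. Red points were called higher, blue points lower and open points were not called. Slc16a1 and Hk2 lie farthest to the right under LPS and Vegfa under anti-IgM in wild-type cells.

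The RNA of the glucose carrier genes differed modestly between conditions. Slc2a1, which encodes the widespread glucose carrier GLUT1, stood at 22.7 and 23.1 FPKM in unstimulated wild-type cells, 27.2 and 28.5 with LPS, and 31.0 and 30.6 with anti-IgM. In Trpm5-/- cells it read 22.0 and 28.4 without stimulus, 28.9 and 26.5 with LPS, and 42.5 and 39.4 with anti-IgM, the highest values of the series. It rose 1.34-fold with anti-IgM in wild-type cells and 1.62-fold in Trpm5-/- cells (log2 difference 0.69 ± 0.11 SE, adjusted p = 0.00038). Its difference with LPS in wild-type cells was called (1.22-fold, log2 difference 0.27, adjusted p = 0.042), but the call was lost without any 1 of the 4 libraries (0.24 to 0.30), without the filter on low values, with the replicate block and with quantile normalization, and the sign changed with equal FPKM sums. The Trpm5-/- libraries with and without LPS overlapped. Slc2a3, the high-affinity carrier GLUT3, stood at 8.91 and 8.58 FPKM without stimulus, 11.1 and 12.9 with LPS and 8.60 and 9.20 with anti-IgM in wild-type cells. The corresponding Trpm5-/- values were 8.47 and 7.56, 8.76 and 8.88, and 6.87 and 6.74 FPKM. Slc2a3 was called higher with LPS in wild-type cells (1.37-fold) and was not called in the other 3 responses. Without the second wild-type LPS library the call was lost (log2 difference 0.32).

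Hexokinase traps glucose in the cell as glucose 6-phosphate. Its isozymes moved in opposite directions with both stimuli and exchanged places with LPS only. Hk2, the inducible hexokinase, read 1.74 and 2.06 FPKM in unstimulated wild-type cells, 18.5 and 16.3 with LPS, and 5.69 and 5.47 with anti-IgM. In Trpm5-/- cells it read 2.23 and 2.86, 22.1 and 19.7, and 7.64 and 6.86 FPKM in the same order. LPS raised Hk2 9.14-fold in wild-type cells (log2 difference 2.66 ± 0.14, adjusted p = 4.2e-08) and 8.22-fold in Trpm5-/- cells, and anti-IgM raised it 2.93-fold and 2.85-fold. Hk1, the constitutive hexokinase, went the other way, from 14.9 and 15.8 FPKM without stimulus to 7.40 and 6.87 with LPS and 10.4 and 10.1 with anti-IgM in wild-type cells. Its Trpm5-/- libraries held 13.5 and 15.6, 5.13 and 5.80, and 8.44 and 8.71 FPKM. Hk1 fell by 1.01 ± 0.11 on the log2 scale with LPS and by 0.54 ± 0.11 with anti-IgM in wild-type cells, and by 1.26 ± 0.11 and 0.70 ± 0.11 in Trpm5-/- cells. Hk2 thus made up 10.5% and 11.6% of the summed FPKM of the pair in unstimulated wild-type libraries, 71.4% and 70.3% with LPS and 35.4% and 35.1% with anti-IgM. The sum itself moved less, from 16.7 and 17.8 FPKM to 25.9 and 23.1 with LPS and 16.1 and 15.6 with anti-IgM. Exons of Hk1 overlap those of Hk1os, and the library kit does not mark strand, so fragments of the pair cannot be told apart there.

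The next steps are taken by glucose 6-phosphate isomerase (Gpi1) and phosphofructokinase, which commits sugar to glycolysis. Gpi1 stood at 101 and 91.6 FPKM in unstimulated wild-type cells, 115 and 106 with LPS and 113 and 108 with anti-IgM, and 102 to 119 FPKM over the 6 Trpm5-/- libraries. It was called higher with LPS in both genotypes and with anti-IgM in wild-type cells, by 1.15-fold each. These calls were lost with 1 library left out: without the second unstimulated or the first LPS library in wild-type cells (log2 difference 0.14 and 0.15), without the second unstimulated or the first anti-IgM library (0.14 and 0.17), and without either unstimulated or the first LPS library in Trpm5-/- cells (0.18 to 0.21). The phosphofructokinase isozymes divided by stimulus. Pfkl, the liver type, stood at 28.1 and 28.9 FPKM without stimulus, 54.1 and 53.9 with LPS and 40.7 and 40.0 with anti-IgM in wild-type cells. Its Trpm5-/- values were 26.7 and 29.0, 59.4 and 60.9, and 36.5 and 40.2 FPKM. LPS raised Pfkl 1.90-fold in wild-type cells (log2 difference 0.90 ± 0.07, adjusted p = 7.9e-07) and 2.16-fold in Trpm5-/- cells. Pfkp, the platelet type, read 36.1 and 37.6 FPKM without stimulus, 37.1 and 38.7 with LPS and 72.4 and 76.1 with anti-IgM in wild-type cells. Among Trpm5-/- libraries it read 40.7 and 44.0, 42.7 and 43.1, and 77.8 and 78.6 FPKM. Anti-IgM raised Pfkp 2.01-fold in wild-type cells (log2 difference 0.99 ± 0.06, adjusted p = 5.2e-07) and 1.85-fold in Trpm5-/- cells, and in both genotypes the LPS libraries overlapped the unstimulated ones. Pfkp accordingly made up 40.7% and 41.8% of Pfkl plus Pfkp in wild-type cells with LPS and 64.0% and 65.6% with anti-IgM, beside 56.3% and 56.5% without stimulus. The 3 phosphofructokinase genes together reached 65.1 and 67.8 FPKM without stimulus, 92.5 and 92.9 with LPS and 114 and 117 with anti-IgM. Exons of Pfkp overlap those of Pitrm1, so a share of its fragments is uncertain.

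**Figure D2:**
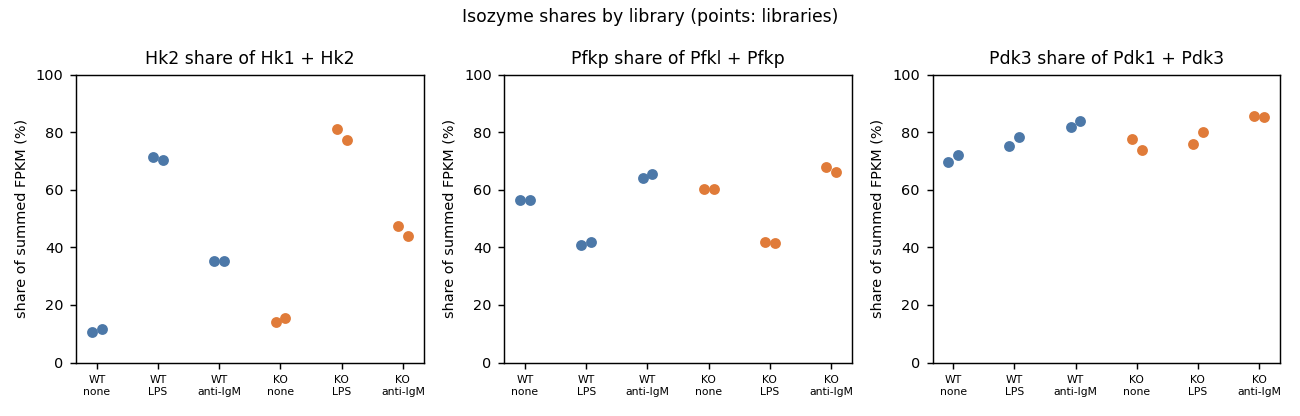
Share of the summed FPKM of a pair of isozymes (vertical axis, percent) in each of the 12 libraries, for Hk2 beside Hk1, Pfkp beside Pfkl and Pdk3 beside Pdk1. Points are libraries, 2 per group, blue for wild type and orange for Trpm5-/- (KO). The Hk2 share is lowest without stimulus and highest with LPS in both genotypes, and the Pfkp share is lowest with LPS.

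Among the enzymes from aldolase to pyruvate kinase, phosphoglycerate mutase stood out. Pgam1, which moves the phosphate of phosphoglycerate, rose from 140 and 118 FPKM to 449.9 and 449 with LPS and 279 and 268 with anti-IgM in wild-type cells. The Trpm5-/- libraries held 162 and 164 FPKM without stimulus, 529 and 509 with LPS and 324 and 319 with anti-IgM. The LPS rise was 3.49-fold in wild-type cells (log2 difference 1.80 ± 0.07, adjusted p = 6.0e-09) and 3.18-fold in Trpm5-/- cells. Pgk1, which makes the first ATP of the chain, read 105 and 98.0 FPKM without stimulus, 184 and 201 with LPS and 152 and 141 with anti-IgM in wild-type cells, and 128 and 128, 199.5 and 208, and 168 and 173 FPKM in Trpm5-/- cells. Pgk1 was called higher in all 4 responses, by 1.89-fold with LPS and 1.44-fold with anti-IgM in wild-type cells. Pkm, the pyruvate kinase that makes the last ATP, stood at 218 and 220.2 FPKM, 365 and 379, and 328 and 334 in wild-type cells, and at 253 and 257, 447 and 442, and 336 and 356 in Trpm5-/- cells, in the order no stimulus, LPS, anti-IgM. It was also called in all 4 responses, with a 1.70-fold rise under LPS in wild-type cells.

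With LPS, the middle of the chain rose by less than Pgam1, Pgk1 and Pkm, while anti-IgM gave no such division. Tpi1, which interconverts the 3-carbon sugars, read 106 and 95.7, 145 and 158, and 142 and 141 FPKM in wild-type cells and 125 and 121, 186 and 171, and 177 and 176 in Trpm5-/- cells. Gapdh, which oxidises glyceraldehyde 3-phosphate and often serves as a reference gene, read 373 and 343, 493 and 530.1, and 557 and 526 FPKM in wild-type cells and 430.04 and 439, 601 and 567, and 679 and 669 in Trpm5-/- cells. Gapdh was called higher in all 4 responses and differed 1.51-fold between anti-IgM and no stimulus in wild-type cells, although quantile normalization turned its LPS difference negative in both genotypes. It was no constant reference in these files. Aldoa, the main aldolase, read 683 and 724, 882 and 916, and 934 and 901 FPKM in wild-type cells and 810.3 and 824, 926 and 893, and 1008 and 989 in Trpm5-/- cells. Eno1, the main enolase, read 223 and 215, 287 and 277, and 227 and 268 FPKM in wild-type cells and 245 and 261, 285 and 304, and 251 and 248 in Trpm5-/- cells. It was called higher with LPS only, in both genotypes, and not with anti-IgM. In Trpm5-/- cells the LPS call of Eno1 was lost without the first unstimulated or the second LPS library (log2 difference 0.17 each), and that of Aldoa without either unstimulated or the first LPS library (0.13 to 0.17). Eno1b, a near-identical copy, was listed at 18.4 to 87.6 FPKM, so the division of fragments between the pair is uncertain. The brain aldolase gene Aldoc was low and fell, from 2.94 and 3.26 FPKM without stimulus to 0.489 and 0.247 with LPS and 0.748 and 1.55 with anti-IgM in wild-type cells. The Trpm5-/- libraries held Aldoc at 4.44 and 3.62, 0.637 and 0.461, and 1.78 and 0.456 FPKM. Its fall was called in all 4 responses (log2 difference -1.59 ± 0.29 with LPS in wild-type cells), and with anti-IgM in wild-type cells the call was lost without either unstimulated or the first anti-IgM library (-0.69 to -1.01).

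Slc16a1 had the largest LPS rise of the members on the log2(FPKM + 1) scale, while Hk2 had the larger ratio. Slc16a1 (chr3:104638668-104658462, plus strand), which encodes the lactate and pyruvate carrier MCT1, stood at 8.46 and 10.1 FPKM in unstimulated wild-type cells, 68.0 and 72.5 with LPS and 32.3 and 30.8 with anti-IgM. Trpm5-/- cells held 14.8 and 15.3, 81.2 and 82.8, and 41.5 and 40.3 FPKM. The LPS rise was 7.57-fold in wild-type cells (log2 difference 2.80 ± 0.08, adjusted p = 1.1e-09) and 5.44-fold in Trpm5-/- cells (2.37 ± 0.08), and with anti-IgM the rises were 3.40-fold and 2.71-fold. Ldha (chr7:46841475-46855627, plus strand), the lactate dehydrogenase subunit that favours lactate formation, read 599 and 585 FPKM without stimulus, 1656 and 1779 with LPS and 1636 and 1531 with anti-IgM in wild-type cells. Trpm5-/- libraries held 781 and 761, 1969 and 1904, and 1767 and 1729 FPKM. Ldha rose 2.90-fold with LPS and 2.68-fold with anti-IgM in wild-type cells (log2 differences 1.53 ± 0.06 and 1.42 ± 0.06), and 2.51-fold and 2.27-fold in Trpm5-/- cells. Set directly against anti-IgM, LPS gave higher Slc16a1 in both genotypes, while Ldha was not called between the stimuli in either genotype.

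**Figure D3:**
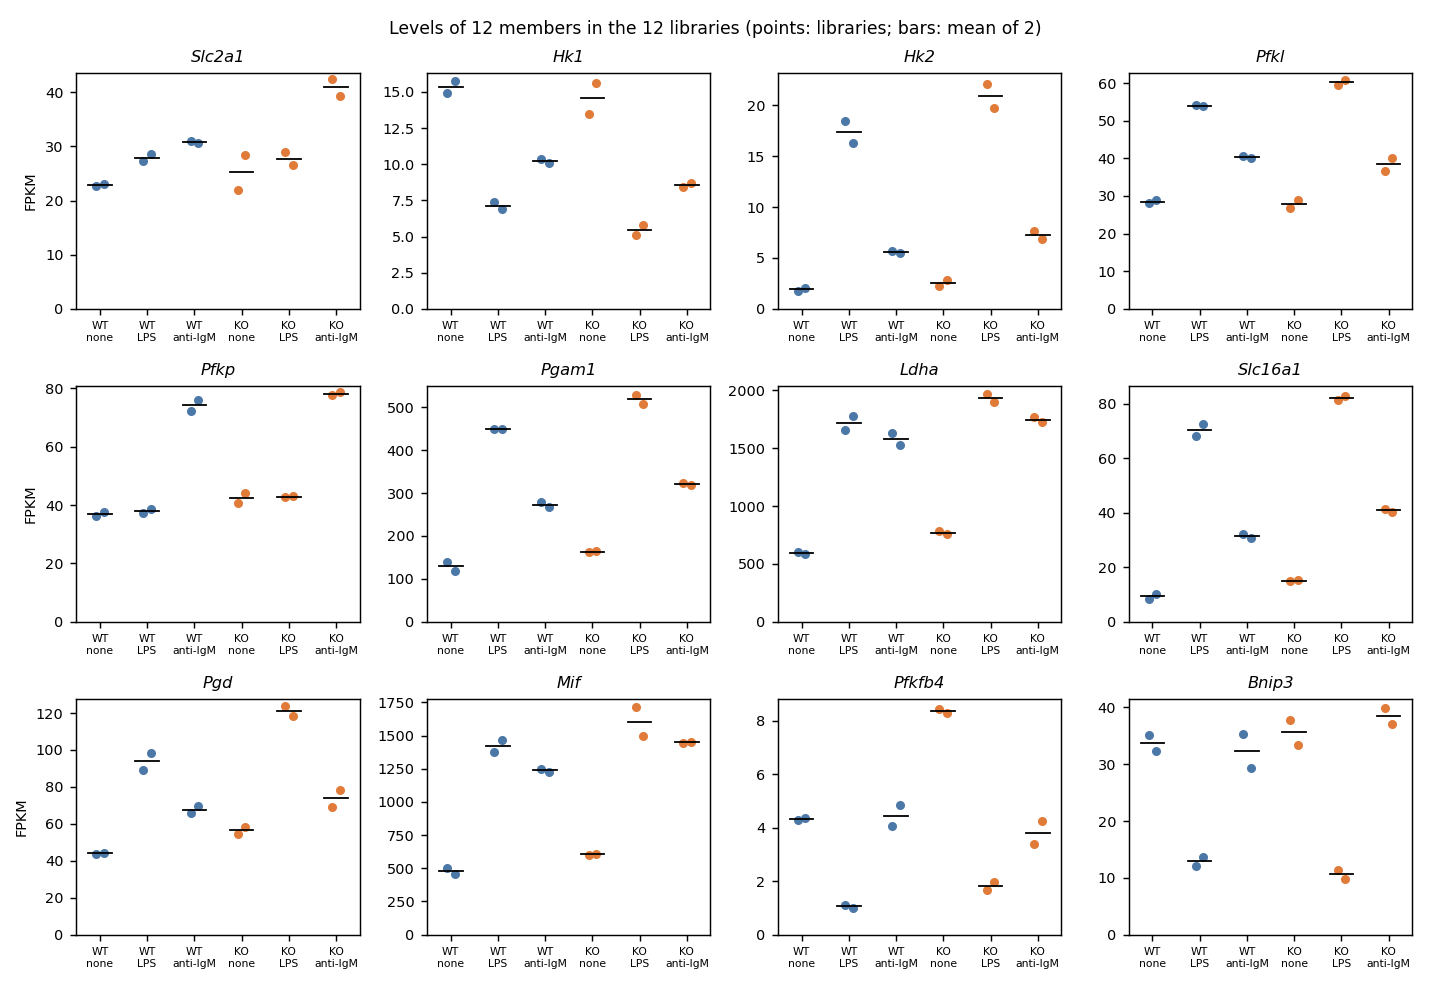
FPKM (vertical axis, from 0) of 12 members in each library. Points are libraries, 2 per group, blue for wild type and orange for Trpm5-/- (KO), and bars are group means. Hk1, Pfkfb4 and Bnip3 are lower with LPS than without stimulus, and Pfkp is high with anti-IgM only.

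The switches of the pathway mostly fell or were not called. PFKFB enzymes set the level of fructose 2,6-bisphosphate, the activator of phosphofructokinase, and PDK enzymes inhibit pyruvate dehydrogenase and so the entry of pyruvate into mitochondria. Pfkfb4 read 4.28 and 4.38 FPKM without stimulus, 1.11 and 1.01 with LPS and 4.06 and 4.85 with anti-IgM in wild-type cells. Unstimulated Trpm5-/- cells held more, 8.45 and 8.28 FPKM, with 1.68 and 1.97 under LPS and 3.39 and 4.26 under anti-IgM. LPS lowered it 4.09-fold in wild-type cells (log2 difference -1.37 ± 0.15, adjusted p = 1.2e-05) and 4.58-fold in Trpm5-/- cells, whereas anti-IgM lowered it only in Trpm5-/- cells by the test (-0.96 ± 0.15, adjusted p = 0.00033). Pfkfb3, the other isozyme, stayed between 3.55 and 6.43 FPKM in all 12 libraries and was called once, higher with LPS in Trpm5-/- cells, a call lost without the second unstimulated library (log2 difference 0.28) or either LPS library (0.48 and 0.47). Pdk1 read 12.5 and 10.7 FPKM without stimulus, 6.31 and 6.91 with LPS and 7.79 and 6.11 with anti-IgM in wild-type cells, and 10.3 and 10.9, 6.27 and 5.49, and 6.51 and 6.26 in Trpm5-/- cells. Its fall of 0.65 to 0.75 on the log2 scale was called in all 4 responses. Pdk3 was the more abundant kinase, with 28.8 and 27.6, 19.2 and 24.8, and 34.6 and 32.1 FPKM in wild-type cells and 35.6 and 30.9, 19.8 and 22.3, and 38.2 and 36.2 in Trpm5-/- cells. It fell with LPS in both genotypes (-0.36 ± 0.12 and -0.64 ± 0.12) and was not called with anti-IgM. The wild-type call was lost without either unstimulated library (-0.33 and -0.38) or the first LPS library (-0.18). Under anti-IgM it made up 81.6% to 85.5% of the FPKM of the pair.

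Of the pentose phosphate genes, 3 of 4 rose with each stimulus in wild-type cells. Pgd, the second oxidative enzyme, read 43.9 and 44.1 FPKM without stimulus, 89.1 and 98.5 with LPS and 65.8 and 69.5 with anti-IgM in wild-type cells. Its Trpm5-/- values were 54.2 and 58.5, 124 and 118, and 69.1 and 78.5 FPKM, and the LPS rise was 2.13-fold and 2.15-fold in the 2 genotypes. Tkt, the transketolase that links ribose back to glycolysis, read 88.4 and 91.7, 148 and 147, and 151 and 153 FPKM in wild-type cells and 104 and 107, 165 and 161, and 158 and 156 in Trpm5-/- cells. It was called higher in all 4 responses, by 1.64-fold with LPS and 1.69-fold with anti-IgM in wild-type cells. G6pdx, the entry enzyme, read 41.1 and 45.4, 61.5 and 61.4, and 60.8 and 50.7 FPKM in wild-type cells and 50.5 and 45.8, 61.4 and 61.7, and 58.6 and 52.5 in Trpm5-/- cells, and its exons overlap those of Ikbkg. Its wild-type anti-IgM call was lost without the first unstimulated or first anti-IgM library (log2 difference 0.29 and 0.23), and its Trpm5-/- LPS call without the second unstimulated library (0.28). Taldo1, the transaldolase of the same branch as Tkt, did not rise with it. It stood at 162 and 153, 134 and 146, and 145 and 154 FPKM in wild-type cells, where it was called lower with LPS (log2 difference -0.17 ± 0.07, adjusted p = 0.049), and at 164 and 160, 190 and 173, and 173 and 163 FPKM in Trpm5-/- cells, where neither response was called. The wild-type call was lost without the first library of either group (-0.12 and -0.11).

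Genes of oxygen sensing and the hypoxia response did not move as 1 group. Hif1a stood between 43.8 and 60.8 FPKM in all 12 libraries and was called in neither stimulus response of either genotype. Vegfa, the vascular growth factor and a classical HIF-1 target, rose from 0.478 and 0.968 FPKM to 3.60 and 3.23 with LPS and 7.44 and 5.25 with anti-IgM in wild-type cells, and from 1.40 and 1.16 to 4.00 and 3.62 and to 5.65 and 4.31 in Trpm5-/- cells. Its rise with anti-IgM in wild-type cells (log2 difference 2.09 ± 0.20, adjusted p = 1.3e-05) was the largest of any member in that response. Bnip3, a mitophagy receptor that is also a classical HIF-1 target, went down with LPS. It read 35.1 and 32.3 FPKM without stimulus, 12.1 and 13.7 with LPS and 35.4 and 29.3 with anti-IgM in wild-type cells, and 37.8 and 33.4, 11.4 and 9.73, and 40.0 and 37.1 in Trpm5-/- cells. Bnip3 fell 2.61-fold with LPS in wild-type cells (log2 difference -1.32 ± 0.12, adjusted p = 2.9e-06) and 3.36-fold in Trpm5-/- cells, and was not called with anti-IgM in either. Mif, a cytokine and tautomerase, read 502 and 454 FPKM without stimulus, 1377 and 1470.2 with LPS and 1250 and 1229 with anti-IgM in wild-type cells. The Trpm5-/- libraries held 598 and 610.1, 1713 and 1499, and 1448 and 1451 FPKM, and Mif rose 2.40-fold to 2.98-fold over the 4 responses. P4ha1, a collagen prolyl hydroxylase subunit, lay between 4.72 and 7.61 FPKM and was called in no comparison. Egln1, the main oxygen sensor that marks Hif1a, was low, at 2.29 and 3.06 FPKM without stimulus, 1.35 and 1.40 with LPS and 2.45 and 1.67 with anti-IgM in wild-type cells and 1.46 to 2.32 in Trpm5-/- libraries. It was called lower with LPS in wild-type cells only (log2 difference -0.62 ± 0.20, adjusted p = 0.016), and the difference between genotypes in that response was not called. The call was lost without the second unstimulated library (-0.47) or either LPS library (-0.61 and -0.64).

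The smaller LPS rises depended on how the libraries were scaled, while the large ones and the falls did not change sign. LPS libraries had higher FPKM sums than unstimulated ones, and the range over the series was 563461 to 805373. Rescaling every library to the same sum lowered the median of all genes under LPS by 0.34 on the log2 scale in wild-type cells and by 0.35 in Trpm5-/- cells. The wild-type count of 19 members higher and 8 lower with LPS became 12 and 11 with equal sums, 13 and 11 with equal sums after small RNA genes were left out, and 14 and 11 after quantile normalization. Over all tested genes in wild-type cells, equal sums gave 22.3% higher and 49.1% lower, where the deposited scaling gave 35% and 34.4%. The Trpm5-/- counts of 18 and 6 became 11 and 13, 12 and 10, and 12 and 12. For the other rescaled counts the share over all genes is not given here, so they are not read as a result about the members. Under at least 1 of these scalings the wild-type LPS difference of Slc2a1, Gpi1, Aldoa, Gapdh and Eno1 changed sign, and so did that of Gpi1, Aldoa, Gapdh, Eno1 and G6pdx in Trpm5-/- cells. Of the 27 wild-type LPS calls, 16 were kept under all alternatives run: the rises of Slc16a1, Hk2, Pgam1, Mif, Ldha, Vegfa, Pgd, Pgk1, Pfkl, Pkm and Tkt and the falls of Hk1, Pdk1, Bnip3, Pfkfb4 and Aldoc. Of the 21 wild-type anti-IgM calls 18 were kept, Aldoa, Gapdh and Tpi1 among them.

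**Figure D4:**
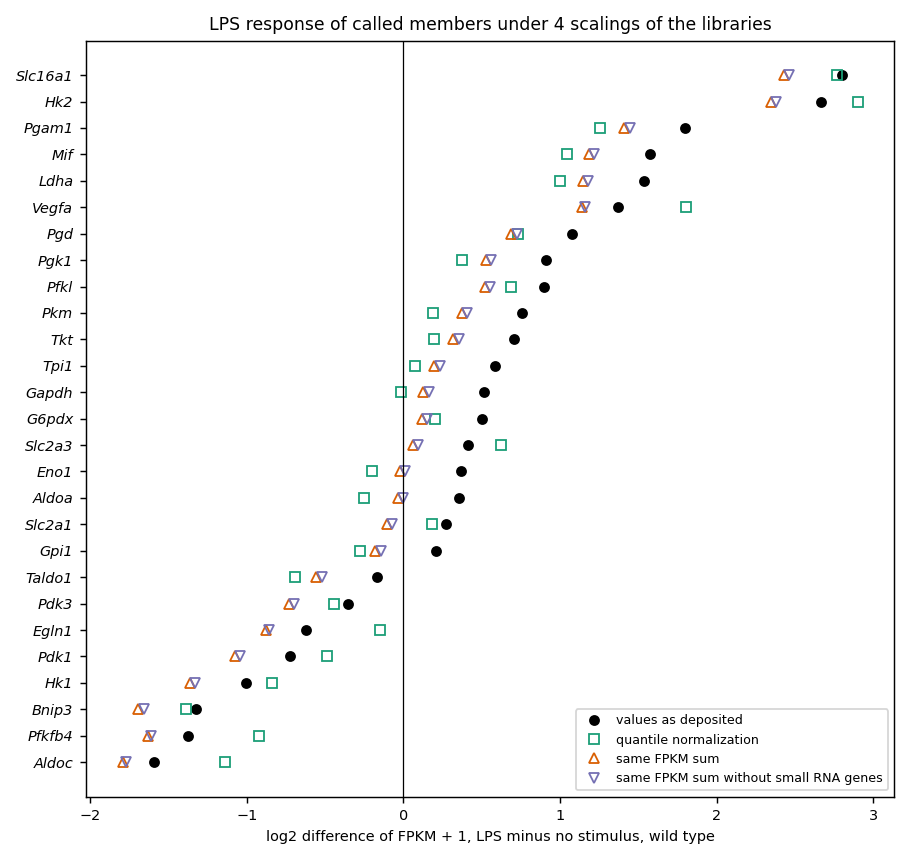
Log2 difference of FPKM + 1 between LPS and no stimulus in wild-type cells (horizontal axis) for the 27 called members, under the deposited scaling and 3 other scalings of the libraries. The upper 11 members stay right of 0 and the lower 8 stay left of 0 under all 4, while Gapdh, Eno1, Aldoa, Slc2a1 and Gpi1 cross it.

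LPS and anti-IgM were also compared directly. In wild-type cells 9 members were higher with LPS than with anti-IgM and 6 were lower, and 52.7% of all genes were called, 27.7% higher and 25% lower. The Trpm5-/- counts were 9 higher and 7 lower, and 51.9% of all genes were called, 28.3% higher and 23.6% lower. The largest excesses of LPS were those of Hk2 (log2 difference 1.48 ± 0.14 in wild-type and 1.41 ± 0.14 in Trpm5-/- cells) and Slc16a1 (1.13 ± 0.08 and 0.99 ± 0.08). Pgam1, Pgd and Pfkl followed, with 0.72, 0.46 and 0.41 in wild-type cells. On the anti-IgM side stood Pfkfb4 (-1.40 ± 0.15 in wild-type and -0.77 ± 0.15 in Trpm5-/- cells), Bnip3 (-1.26 ± 0.12 and -1.77 ± 0.12), Pfkp (-0.95 ± 0.06 and -0.85 ± 0.06) and Pdk3 (-0.59 ± 0.12 and -0.80 ± 0.12). With equal FPKM sums the split became 3 higher and 14 lower in wild-type cells and 5 and 10 in Trpm5-/- cells. The same rescaling shifted the median log2 difference of all tested genes by -0.23 in wild-type and -0.18 in Trpm5-/- cells. The share of all genes called under this rescaling is not given here, so the new split is not read as a result about the members. The called excesses of Mif and Pkm under LPS in wild-type cells changed sign under all 3 other scalings, and those of Eno1 and Pgk1 in Trpm5-/- cells did so under quantile normalization. Hk2, Slc16a1 and Pgam1 on the LPS side and Bnip3, Pfkfb4, Pfkp and Pdk3 on the anti-IgM side kept their calls in wild-type cells under all alternatives run.

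Between the genotypes, several glycolytic RNAs were modestly higher in Trpm5-/- cells. Without stimulus 12 of 32 members were higher and 0 lower (limma, adjusted p under 0.05; 15 members at an unadjusted p under 0.05), while 6.11% of all genes were called, 4.45% higher and 1.66% lower. The median member difference was 0.21, beside 0.02 over all genes. Pfkfb4 differed 1.93-fold (log2 difference 0.81 ± 0.15, adjusted p = 0.013), at 8.45 and 8.28 FPKM against 4.28 and 4.38. Slc16a1 differed 1.62-fold (0.65 ± 0.08, adjusted p = 0.0026), at 14.8 and 15.3 against 8.46 and 10.1 FPKM. Ldha followed at 1.30-fold (0.38 ± 0.06, adjusted p = 0.0062). The other 9, Pgd, Pgam1, Mif, Pgk1, Tpi1, Gapdh, Tkt, Aldoa and Pkm, differed by 0.22 to 0.35 on the log2 scale. These calls were not stable. The count became 2 when only these 4 libraries were fitted, and the count over all genes then fell from 660 to 163. Fewer members, and fewer genes over all, were also called with any 1 of the 4 libraries left out. The drop is thus not read as a result about the members. None of the 12 calls was kept under all alternatives run, although none changed sign.

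With LPS, 4 members were higher in Trpm5-/- cells and 0 lower (17 members at an unadjusted p under 0.05), while 3.59% of all genes were called, 1.82% higher and 1.78% lower. They were Taldo1 (log2 difference 0.37 ± 0.07, adjusted p = 0.017), Pgd (0.37 ± 0.08, adjusted p = 0.029), Hif1a (0.34 ± 0.08, adjusted p = 0.046) and Pkm (0.25 ± 0.05, adjusted p = 0.017). Hif1a read 60.8 and 54.8 FPKM in Trpm5-/- cells with LPS against 43.8 and 46.8 in wild-type cells with LPS. Taldo1 lies on the chromosome that carries Trpm5, 1.666 Mb away, and Bnip3 lies 4.16 Mb, Aldoa 16.27 Mb, Ldha 96.21 Mb and Gpi1 108.8 Mb from it. A passenger segment around a targeted locus and the loss of the gene cannot be told apart in this design. On another chromosome, Slc2a3, Tpi1 and Gapdh lie close together, at chr6:122727809-122801640, chr6:124810586-124814296 and chr6:125161715-125166467. Whether the strain background differs there between the genotypes was not tested. With anti-IgM, 3 members were higher and 0 lower (12 at an unadjusted p under 0.05), while 3.83% of all genes were called, 1.91% higher and 1.92% lower. These were Slc16a1 (0.36 ± 0.08, adjusted p = 0.040), Tpi1 (0.32 ± 0.07, adjusted p = 0.028) and Gapdh (0.32 ± 0.06, adjusted p = 0.020). These LPS and anti-IgM calls were not stable either. Fewer members, and fewer genes over all, were called with any 1 of the compared libraries left out.

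Averaged over the 3 conditions, which uses all 12 libraries, 16 members were higher and 2 lower in Trpm5-/- cells, and 16.0% of all genes were called, 10.2% higher and 5.88% lower. By role, 8 of 14 tested glycolytic enzymes, both tested lactate genes, 3 of 4 pentose phosphate genes, 1 of 4 switches and 2 of 6 hypoxia genes were higher. The largest mean difference was that of Slc16a1 (log2 difference 0.41 ± 0.05, adjusted p = 0.00036), followed by Pfkfb4 (0.36 ± 0.08, adjusted p = 0.016) and Hk2 (0.29 ± 0.08, adjusted p = 0.033). Tpi1 and Pgd stood at 0.28, Gapdh and Pgam1 at 0.26, Mif at 0.25, Ldha at 0.23 and Pgk1 at 0.21. Taldo1 and Hif1a stood at 0.19, Pkm at 0.18, Pfkp at 0.15, Tkt at 0.14 and Aldoa at 0.12. The members that were lower were the glucose carrier gene Slc2a3 (-0.29 ± 0.06, adjusted p = 0.013) and Hk1 (-0.21 ± 0.06, adjusted p = 0.046). Of these 18 calls 12 were kept under all alternatives run: Slc16a1, Pfkfb4, Tpi1, Pgd, Gapdh, Pgam1, Mif, Ldha, Pgk1, Taldo1, Pkm and Slc2a3. Summed red blood cell markers were below the wild-type sums in Trpm5-/- libraries of each condition, 472 to 510.1 against 684 to 710 FPKM without stimulus, 276 to 277 against 454 to 538 with LPS and 249 to 307 against 379 to 521 with anti-IgM. Summed marginal zone markers were higher in each, 1451 to 1468 against 1138 to 1162 FPKM without stimulus, 784 to 826 against 570 to 592 with LPS and 1036 to 1069 against 827 to 835 with anti-IgM. Summed pan-B markers were lower in each, 5131 to 5142 against 5374 to 5618, 2751 to 2813 against 3375 to 3434, and 1632 to 1663 against 1895 to 1907 FPKM in the same order. Summed follicular B cell markers were also lower, 1013 to 1049 against 1248 to 1302, 2750 to 2788 against 3102 to 3229, and 830 to 851 against 964 to 969 FPKM. Summed macrophage markers were lower without stimulus, 31.1 to 34.4 against 37.0 to 41.0 FPKM, and higher with LPS, 49.9 to 50.5 against 30.3 to 31.2, and with anti-IgM, 27.1 to 30.3 against 20.1 to 24.1. The part of these differences in the results was not tested.

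**Figure D5:**
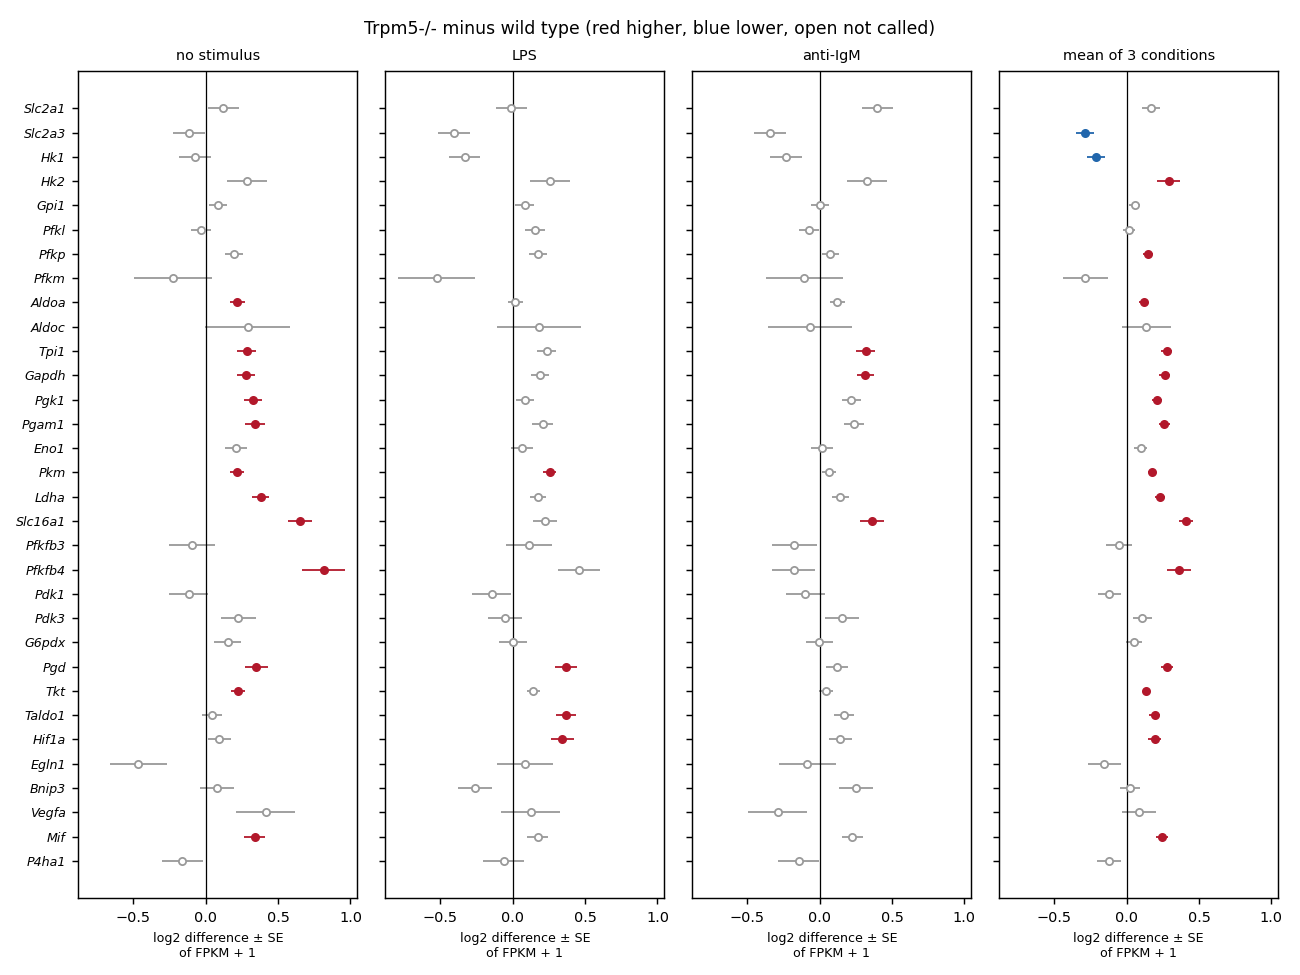
Log2 difference of FPKM + 1 between Trpm5-/- and wild-type cells (horizontal axis, bars are standard errors of the model) for the 32 tested members, in each condition and averaged over the 3. Red points were called higher, blue points lower and open points were not called. The called differences are higher in Trpm5-/- cells in every panel, except for Slc2a3 and Hk1 in the average.

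No stimulus response of a member was shown to differ between the genotypes. In the test of the interaction of genotype with LPS, 0 of 32 members were called by limma, 5 had an unadjusted p under 0.05, and 0.102% of all genes were called, 0.0648% higher and 0.0370% lower. The smallest p belonged to Slc16a1 (log2 difference of the responses -0.43 ± 0.12, adjusted p = 0.28), Taldo1 (0.33 ± 0.10, adjusted p = 0.31) and Pgk1 (-0.24 ± 0.09, adjusted p = 0.39). For anti-IgM 0 members were called, 6 had an unadjusted p under 0.05, and 0.0278% of all genes were called, 0.00926% higher and 0.0185% lower. Here the smallest p belonged to Pfkfb4 (-0.99 ± 0.21, adjusted p = 0.25), Ldha (-0.24 ± 0.08, adjusted p = 0.55) and Tkt (-0.18 ± 0.07, adjusted p = 0.57). The fall of Pfkfb4 with anti-IgM in Trpm5-/- cells and its absence from the wild-type calls are thus not shown to differ.

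Other genes of the surrounding pathways were followed in 6 lists. In wild-type cells with LPS the lists of other glycolysis and sugar entry genes (10 of 25 tested higher, 10 lower), other pentose phosphate and ribose genes (3 of 11 higher, 3 lower) and other oxygen sensing genes and HIF targets (10 of 22 higher, 11 lower) were split. Lists on pyruvate entry into mitochondria (13 of 23 higher, 6 lower), on side branches from glycolysis (10 of 19 higher, 6 lower) and on regulators of glucose use (10 of 24 higher, 6 lower) had more members higher. Over all tested genes 35% were higher and 34.4% lower. The list medians were -0.04, 0.06, 0.00, 0.39, 0.34 and 0.16, in the order named, beside -0.02 over all tested genes. With equal FPKM sums, an alternative chosen after seeing the data, the counts became 8 higher and 12 lower, 1 and 7, 8 and 11, 4 and 10, 6 and 8, and 6 and 13, and 22.3% of all genes were higher and 49.1% lower. No list then had more members higher than lower with LPS. With anti-IgM the counts were 9 higher and 6 lower, 2 and 1, 8 and 3, 15 and 3, 6 and 1, and 7 and 7 in the same order, beside 27.7% of all genes higher and 20.9% lower. Equal sums made these 7 and 8, 2 and 1, 7 and 5, 9 and 5, 6 and 3, and 6 and 9, beside 21.3% and 26.6%.

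Regulators and branch enzymes of these lists had some of the largest differences. Myc, whose product drives growth genes, read 56.4 and 58.9 FPKM without stimulus, 475 and 486 with LPS and 266 and 287 with anti-IgM in wild-type cells (log2 differences 3.04 ± 0.05 and 2.24 ± 0.05). Txnip, which restrains glucose uptake, read 88.6 and 92.1, 19.7 and 18.95, and 38.1 and 40.5 FPKM (-2.17 ± 0.07 and -1.18 ± 0.07). The serine hydroxymethyltransferase genes, which feed one-carbon metabolism from serine, rose with both stimuli. Shmt1 went from 15.0 and 17.5 FPKM to 108 and 116 with LPS and 88.6 and 89.7 with anti-IgM, and Shmt2 from 86.6 and 86.0 to 259 and 258 and to 216 and 221. Prps1, which makes the activated ribose of nucleotides, rose by 1.60 ± 0.07 with LPS and 0.75 ± 0.07 with anti-IgM on the log2 scale. Among other HIF targets, Adm, the vasodilator adrenomedullin, rose by 2.67 ± 0.07 and 1.16 ± 0.07, and Bhlhe40, a transcriptional repressor, by 1.90 ± 0.08 and 1.75 ± 0.08. The sugar carrier gene Slc2a6 fell by 1.93 ± 0.14 with anti-IgM but went up with LPS, from 16.8 and 16.1 FPKM to 28.2 and 29.9. Gpd1l, a glycerol 3-phosphate dehydrogenase-like gene, fell by 2.12 ± 0.11 with LPS. It read 48.4 and 55.4 FPKM without stimulus and 25.6 and 25.5 with anti-IgM.

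In the genotype comparison averaged over the conditions, 4, 2, 4, 3, 5 and 3 of the 25, 11, 22, 23, 19 and 24 tested genes of the same lists were higher in Trpm5-/- cells and 1, 1, 0, 0, 0 and 3 were lower, beside 10.2% of all tested genes higher and 5.88% lower. With equal FPKM sums the higher counts were 1, 2, 1, 2, 3 and 0 and the lower counts 1, 1, 0, 0, 0 and 3, beside 5.7% and 6.97% of all genes. Adm differed by 0.42 ± 0.04, Pgm1, named for phosphoglucomutase, by 0.44 ± 0.06, and Gbe1, the glycogen branching enzyme, by 0.62 ± 0.07. On the lower side stood Txnip (-0.37 ± 0.04) and Sesn1, a p53 and FOXO target (-0.40 ± 0.06). Bpgm, the red blood cell enzyme that makes 2,3-bisphosphoglycerate, was also lower (-0.62 ± 0.10), beside the lower summed red blood cell markers given above.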

How the data were processed

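RNA from marginal zone B cells was amplified as full-length cDNA by the SMART-Seq HT method, per the labels. The authors deposited 1 value per gene symbol and library, read here as FPKM because Cufflinks is named and the values behave so; the unit is not in the file headers. Cufflinks 2.2.1, SAMtools 0.1.19, Bowtie2 2.2.3, TopHat2 2.0.13 and the mm10 build are named in the submitters' processing notes. For annotation, scaling between libraries and counting, the methods were not given in the sources used here, and total read numbers are unknown. Median ratios of the libraries to their geometric mean were 1.008 to 1.015, so the deposited values were already scaled to each other, and no scaling was added.

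Values were tested as log2(FPKM + 1), which understates the change of low genes. The 10797 genes that reached 1 FPKM in 2 or more libraries entered 1 group-means model over 12 libraries (limma 3.58.1, R 4.3.3, eBayes with trend, 6 residual degrees of freedom), with 12 comparisons, 2-sided tests and Benjamini-Hochberg adjustment over all tested genes. Calls are at an adjusted p under 0.05. Standard errors of the model stand beside log2 differences, and folds are ratios of mean FPKM. The model was tested on simulated data.

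The members and lists were chosen with earlier results of these data known. Values in every library are given for members called in at least 1 comparison or belonging to an isozyme pair. Log2 differences with errors are given for at most the 8 largest rises and 8 largest falls of a stimulus comparison, for every call of a genotype comparison (or the 3 smallest p where fewer than 3 were called), and for at most 3 genes of smallest p per pathway list. A few smaller stimulus responses are given as folds or log2 differences beyond that rule, chosen after their values were seen. Gene positions are from GENCODE and promoter windows from RefSeq, and isozyme proteins were not analysed here. Alternatives covered the pseudocount, the filter, the scaling, the replicate block, the libraries fitted and each library left out.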

Additional observations from a re-analysis of the deposited data

How the results depend on the processing

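The 160 called member differences were recomputed 2029 times under the alternatives: 1736 kept their call, 262 lost it and 31 changed sign. All 31 sign changes came from rescaling. With quantile normalization the wild-type LPS difference became -0.25 for Aldoa, -0.20 for Eno1, -0.016 for Gapdh and -0.27 for Gpi1, the wild-type anti-IgM difference -0.027 for Gpi1, and the Trpm5-/- LPS difference -0.34 for Aldoa, -0.35 for Eno1, -0.16 for Gapdh and -0.28 for Gpi1. LPS minus anti-IgM became -0.16 for Mif and -0.15 for Pkm in wild-type and -0.022 for Eno1 and -0.035 for Pgk1 in Trpm5-/- cells. With the same FPKM sum in every library the wild-type LPS difference became -0.036 for Aldoa, -0.023 for Eno1, -0.18 for Gpi1 and -0.10 for Slc2a1, and the Trpm5-/- LPS difference -0.26 for Aldoa, -0.19 for Eno1, -0.057 for G6pdx and -0.21 for Gpi1. Wild-type LPS minus anti-IgM became -0.072 for Mif and -0.10 for Pkm. Leaving out small RNA genes before equalising the sums, an alternative chosen after seeing the data, gave -0.00086 for Aldoa, -0.15 for Gpi1 and -0.070 for Slc2a1 with LPS in wild-type cells, -0.18 for Aldoa, -0.12 for Eno1 and -0.13 for Gpi1 with LPS in Trpm5-/- cells, and -0.040 for Mif and -0.071 for Pkm in wild-type LPS minus anti-IgM. The cause was not tested.

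Counts of called members stayed within 1.5 times in the 4 stimulus responses, in the 2 comparisons of LPS with anti-IgM and in the genotype average. The 12 members called between genotypes without stimulus became 2 when only the compared libraries were fitted, and 1 to 7 with 1 library left out. The 4 called under LPS became 2 without the filter on low values, 2 with quantile normalization, 1 with equal FPKM sums, 0 with only the compared libraries and 0 to 1 with 1 library left out. The 3 called under anti-IgM became 0 with equal sums, 6 with only the compared libraries and 0 with any 1 library left out. Over all genes, these 3 genotype counts of 660, 388 and 413 became 160 to 273, 158 to 208 and 117 to 153 with 1 library left out, where a lone library is assumed to vary like the other groups, and the first 2 became 163 and 171 with only the compared libraries. The interaction counts of 11 and 3 genes ranged from 3 to 17 and from 1 to 9. Over the settings with no library of the compared groups left out, the 3 genotype counts of all genes ran from 163 to 719, 171 to 425 and 332 to 446. With the replicate block the member counts were 25 and 21 for LPS and anti-IgM in wild-type cells, and 24 and 20 in Trpm5-/- cells. They were 16 and 16 between the stimuli, 12, 3 and 3 between genotypes and 17 in the average. The share of all genes called with the block is not given here, so these counts are not read as a result about the members. Correlations of same-numbered deviations ran from -0.17 to 0.20, so the numbers were not taken to pair the libraries. Depth limits members near 1 FPKM, such as Aldoc, Egln1 and Vegfa.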
